A study of Homo sapiens with 24 samples.

Results

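The heat shock response genes described here are 9 genes chosen by symbol, with earlier results of these data known. They are the transcription factor HSF1 and the chaperone genes HSPA1A, HSPA1B, DNAJB1, HSPH1, HSPB1, HSP90AA1, HSPA8 and BAG3. All 9 were found in each of 3 expression tables, which together name 18154 genes, and all 9 passed the filter on low levels in each table. RNA was sequenced from 24 libraries of BT549, an established human triple negative breast cancer cell line labelled wild type, in 8 groups of 3 libraries numbered as biological replicates. The inhibitor experiment has a vehicle group (VEH), a group labelled DEX, whose dose and duration the labels leave out, a group given KJ-PYR-9, an inhibitor of MYC dissolved in DMSO, at 40 µM for 3 h, and a group given both agents (KJ-PYR-9+DEX). The knockdown experiment compares cells 72 h after transfection of pooled siRNAs that target MYC (siMYC) with control cells (siCtl), whose time the labels do not give. In the MB-3 experiment cells received a second set of vehicle controls (VEH2) or MB-3 (group MB3), an inhibitor of the histone acetyltransferase GCN5, in DMSO at 100 µM for 3 h. Library MB3 1 carries MED3 in its title but MB3 as its treatment, and is counted in MB3. All results come from 1 cell line, and the labels name no heat treatment.

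When proteins misfold, HSF1 is released from chaperones, forms trimers, enters or stays in the nucleus and binds heat shock elements, which are inverted repeats of a short GAA unit in the promoters of chaperone genes. HSP70 proteins then bind exposed hydrophobic stretches of client proteins in cycles driven by ATP. J proteins such as DNAJB1 deliver the clients and stimulate ATP hydrolysis, while HSP110 proteins (HSPH1) and BAG proteins (BAG3) exchange the nucleotide and release them. Small heat shock proteins such as HSPB1 hold unfolded proteins without ATP, and HSP90 proteins such as HSP90AA1 fold signalling proteins. Many tumour cells keep high levels of these chaperones without a heat stress.

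The promoters are shown because heat shock elements are what the strongly heat-inducible members are known to share. RefSeq promoter windows of 300 bases ran from 250 before to 50 after an annotated start (GRCh38.p14). Windows were used for 8 of the 9 genes (all but HSF1), with several starts for DNAJB1 and HSP90AA1. They were searched for GAANNTTC and TTCNNGAA, each of which reads the same on both strands and is made of 2 facing units, and for 3 alternating units in a row, which contain both. The search found the 2-unit form in 13.5% of 35116 promoter windows and the 3-unit form in 172 of them, or 0.490%. Capitals mark the matches, which can overlap.
HSPA1A (chr6:31815411-31815470, plus strand): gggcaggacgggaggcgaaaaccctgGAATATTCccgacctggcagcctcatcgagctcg
HSPA1B (chr6:31827607-31827666, plus strand): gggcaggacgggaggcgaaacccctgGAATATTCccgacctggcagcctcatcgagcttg
DNAJB1, start 2 (chr19:14518411-14518500, minus strand): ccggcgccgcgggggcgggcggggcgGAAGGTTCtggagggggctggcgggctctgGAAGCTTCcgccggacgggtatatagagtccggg
HSPB1 (chr7:76302465-76302524, plus strand): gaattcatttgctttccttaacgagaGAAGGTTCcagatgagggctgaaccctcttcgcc
HSP90AA1, start 2 (chr14:102087079-102087158, minus strand): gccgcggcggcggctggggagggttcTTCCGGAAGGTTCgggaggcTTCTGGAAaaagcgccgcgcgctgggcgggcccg
HSPA8 (chr11:123062153-123062217, minus strand): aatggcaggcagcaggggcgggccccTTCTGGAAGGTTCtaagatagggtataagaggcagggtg

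The match begins 106 bases before the start in HSPA1A and 105 in HSPA1B, and both windows carry the same 8 letters there. In DNAJB1 the matches at start 2 begin 77 and 47 bases before it, and in HSPB1 the match begins 182 bases before the start. The windows of HSP90AA1 start 2 and of HSPA8 hold 3 and 4 matches, with 1 and 2 occurrences of the 3-unit form; for HSPA8 the stretch nearest the start is shown. No match was found in the windows of HSPH1, BAG3, DNAJB1 start 1 and HSP90AA1 start 1, which says only that these letters are not in those windows. The window of DNAJB1 start 3 has 1 match, which lies after the start and is not shown. A match is a description of the sequence and not a binding site. The HSPA1A and HSPA1B windows are 92.0% identical (277 identical positions, 22 mismatches and 2 gaps). Their transcripts also share sequence: 69.9% of the 100-base windows of HSPA1A also occur in HSPA1B, and 68.8% of those of HSPA1B occur in HSPA1A. Reads from these 2 genes can therefore be assigned to either copy, and their separate values are less certain than their sum.

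Depth was 5581666 (DEX 1) to 30758107 reads per library in the inhibitor experiment, 18765269 to 24154628 in the knockdown and 8305573 to 19957494 in the MB-3 experiment. Features without a gene name held 26.04% of the reads of DEX 1 and 8.72% of KJ-PYR-9+DEX 3, against 1.62% to 5.44% in the other inhibitor libraries. The mesenchymal genes VIM and CD44 read at least 9614 and 11806 normalized counts in every library. ERBB2, the HER2 receptor gene, read 559 to 2100, the progesterone receptor gene PGR at most 20.9, and the leukocyte genes PTPRC and CD14 at most 39.2 and 67.3. No value of ESR1 or CD3E was used here. Shifts in GC content moved with the treatments. In the quintile of genes with the highest transcript GC content, the median library deviation from the control mean was +0.64 to +0.84 (log2) in KJ-PYR-9, +0.42 to +0.89 in KJ-PYR-9+DEX and -0.65 to -0.16 in DEX. In the quintile with the lowest GC content it was -0.76 to -0.56, -1.07 to -0.46 and +0.22 to +0.72 in the same groups. The members span this range, from 40.0% GC in the longest coding transcript of HSPH1 to 64.5% in that of HSPB1, so values with GC content and length trends removed are given beside those as deposited. Whether the shift arose in the cells or in the libraries was not tested.

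Expressed per kilobase of that transcript, the constitutive HSP70 gene HSPA8 stood highest in VEH at 8109.8 (SD 627, n = 3), followed by HSPB1 at 6247 (SD 749) and HSP90AA1 at 5001 (SD 1048). HSF1 followed at 1287 (SD 37.7), HSPH1 at 836 (SD 175), DNAJB1 at 801 (SD 86.6) and BAG3 at 618 (SD 51.7). HSPA1A at 298 (SD 60.5) and HSPA1B at 238 (SD 23.4) were lowest. Neighbours whose libraries overlapped in this order were HSPB1 and HSP90AA1, HSPH1 and DNAJB1, and HSPA1A and HSPA1B. With KJ-PYR-9 alone HSPA1A stood at 1199 (SD 510) and HSPA1B at 995 (SD 515), above BAG3 at 865 (SD 30.2) and HSPH1 at 666 (SD 136). The libraries of HSPA1A and of HSPA1B overlapped those of BAG3 and of HSPH1 in this group. With KJ-PYR-9+DEX both were again the lowest, at 313 (SD 80.2) and 225 (SD 48.7).

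The KJ-PYR-9 comparison asked which transcripts change when an inhibitor of MYC is given for a short time. The MYC transcript itself was higher than in VEH with KJ-PYR-9 (log2 2.49, SE 0.21, limma adjusted p = 6.38e-05). It was also higher with DEX (3.40) and with KJ-PYR-9+DEX (1.25), and lower in KJ-PYR-9+DEX than in DEX (-2.15). The activity of the MYC protein was not measured here. HSPA1A, HSPA1B and DNAJB1 rose 3.84-fold, 3.85-fold and 2.57-fold with KJ-PYR-9 alone, and HSPB1, HSF1 and BAG3 rose 2.14-fold, 1.91-fold and 1.40-fold. HSPH1, HSP90AA1 and HSPA8 did not pass the test. So 6 of the 9 members rose and 0 fell, beside 25.4% of 13616 tested genes that rose and 17.5% that fell (limma adjusted p under 0.05). With TMM rescaling the same 6 members were called, and 49.4% of all calls were higher, against 59.2% as deposited. When DEX was given with KJ-PYR-9, HSPA1A, HSPA1B and DNAJB1 did not pass against VEH (log2 0.06, -0.10 and 0.04). With GC content and length trends removed they were at -0.45, -0.57 and -0.16, and did not pass either (limma adjusted p = 0.267, 0.213 and 0.628). As deposited, HSPB1, HSF1 and BAG3 were again higher than in VEH. Each library is bulk RNA, so a change in every cell and a larger change in some of the cells cannot be told apart.

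**Figure D1:**
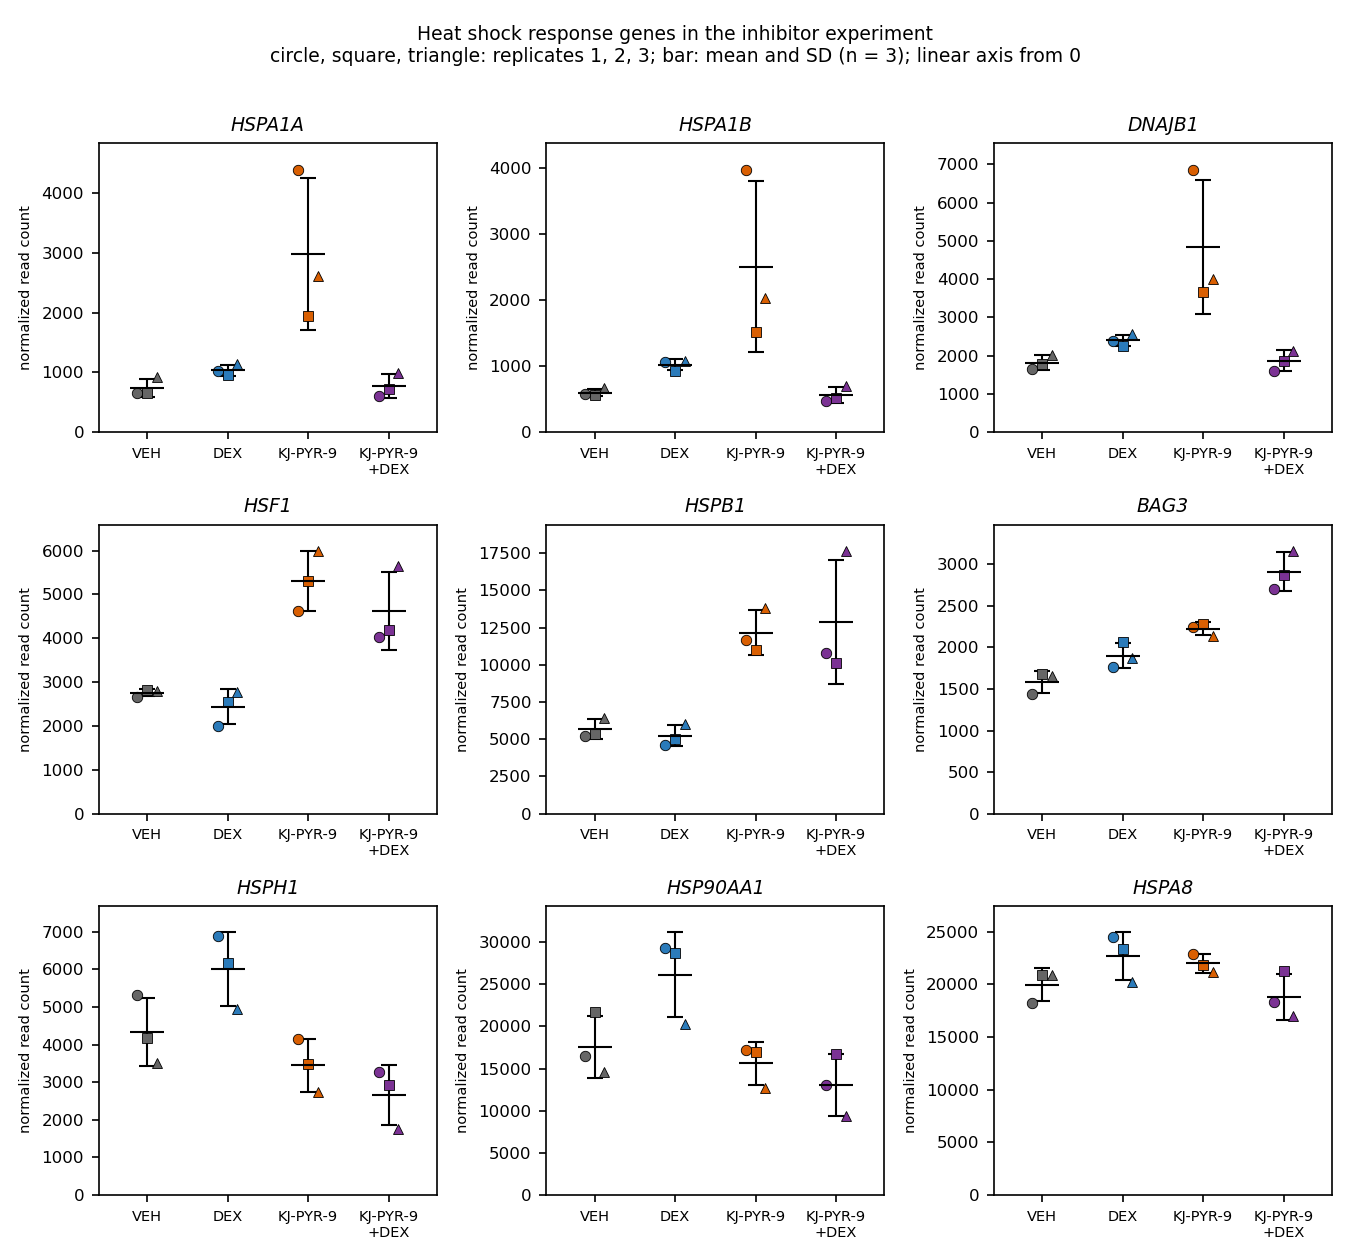
Normalized read counts (vertical axis, linear from 0) of the 9 heat shock response genes in the 3 libraries of VEH, DEX, KJ-PYR-9 and KJ-PYR-9+DEX, with the mean and SD as bars. HSPA1A, HSPA1B and DNAJB1 were high in the 3 KJ-PYR-9 libraries and near VEH in KJ-PYR-9+DEX, while HSF1, HSPB1 and BAG3 were high in both groups given KJ-PYR-9.

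HSPA1A (chromosome 6, 31815543 to 31817942) encodes a stress-inducible HSP70. Its normalized counts were 656, 653 and 914 in VEH 1 to 3, 1019, 956 and 1133 in DEX, 4389, 1944 and 2602 in KJ-PYR-9, and 608, 726 and 996 in KJ-PYR-9+DEX. KJ-PYR-9 libraries lay above all other libraries of the experiment, and KJ-PYR-9+DEX overlapped VEH. The share of all tested genes whose groups did not overlap was not counted in any experiment. Separations of groups given for the members are therefore descriptions of the values only. The log2 fold change was 1.94 (SE 0.28, limma adjusted p = 0.00120) for KJ-PYR-9 against VEH and 0.06 (SE 0.28, limma adjusted p = 0.885) for KJ-PYR-9+DEX against VEH. Library KJ-PYR-9 1 was the highest of its group, and without it the first value was 1.62 with an adjusted p of 0.00371 in limma. In DEX all 3 libraries were above VEH, but the difference of 0.50 (SE 0.28, limma adjusted p = 0.206) did not pass.

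HSPA1B (chromosome 6, 31827738 to 31830254), the neighbouring copy with almost the same protein, read 574, 558 and 667 in VEH, 1059, 929.7 and 1078 in DEX, 3975, 1512 and 2036 in KJ-PYR-9 and 471, 524 and 706 in KJ-PYR-9+DEX. As in HSPA1A, the mean was highest in KJ-PYR-9 and next highest in DEX, and KJ-PYR-9+DEX overlapped VEH. The log2 fold change with KJ-PYR-9 was 1.94 (SE 0.29, limma adjusted p = 0.00142) and 1.55 without KJ-PYR-9 1. With DEX alone the difference was 0.77 (SE 0.29, limma adjusted p = 0.0856), with no overlap between the groups. Against DEX, KJ-PYR-9+DEX was lower (log2 -0.87, SE 0.29, limma adjusted p = 0.0209). That call was lost when both copies were summed (-0.64, limma adjusted p = 0.0648) and without DEX 1, DEX 3, KJ-PYR-9+DEX 1 or KJ-PYR-9+DEX 2, where limma adjusted p values were 0.0512 to 0.0680. HSPA1A held 49.0% to 58.5% of the reads of both copies in the 12 libraries, and with both copies summed the rise with KJ-PYR-9 was 1.94 (limma adjusted p = 0.00127).

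DNAJB1 (chromosome 19, 14514769 to 14560391), the main inducible J protein partner of HSP70, was also highest with KJ-PYR-9 and next highest with DEX. It read 1639.7, 1773 and 2026 in VEH, 2395, 2264 and 2558 in DEX, 6864, 3661 and 3996 in KJ-PYR-9 and 1595, 1871 and 2134 in KJ-PYR-9+DEX. Again the KJ-PYR-9 libraries lay above all others, and KJ-PYR-9+DEX overlapped VEH. The log2 fold change with KJ-PYR-9 was 1.36 (SE 0.22, limma adjusted p = 0.00184), and 1.08 without KJ-PYR-9 1. With DEX alone the 3 libraries were above VEH by 0.41 (SE 0.22, limma adjusted p = 0.182), which did not pass. Ranked by fold change from the highest, HSPA1B, HSPA1A and DNAJB1 were number 112, 113 and 338 of 13616 genes in KJ-PYR-9 against VEH.

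Whether the KJ-PYR-9 effect depends on DEX was tested as the difference between KJ-PYR-9+DEX against DEX and KJ-PYR-9 against VEH. For HSPA1A the KJ-PYR-9 effect was 1.94 without DEX and -0.44 with it, a difference of -2.38 (SE 0.40, limma adjusted p = 0.00251). It was -2.81 for HSPA1B (SE 0.41, limma adjusted p = 0.00118) and -1.74 for DNAJB1 (SE 0.31, limma adjusted p = 0.00356). These 3 of the 9 members differed, each in the lower direction and 0 in the higher, beside 9.62% of tested genes that differed in the lower direction and 7.15% in the higher. The 3 calls passed under every alternative run, 24 for HSPA1A and DNAJB1 and 23 for HSPA1B. Without DEX 1, the library of lowest depth, the differences were -2.39, -2.79 and -1.74 for HSPA1A, HSPA1B and DNAJB1, and without KJ-PYR-9+DEX 3 they were -2.58, -2.98 and -1.84. With TMM rescaling, 53.3% of all calls over the genes tested were in the higher direction, against 42.6% with the values as deposited, and the same 3 members were called. For HSPH1 the difference was -0.89 (limma adjusted p = 0.11999) and for HSP90AA1 -0.86 (limma adjusted p = 0.114), and with the replicate number as a block both passed (limma adjusted p = 0.00416 and 0.00615). That block also raised the number of genes called in this test from 2283 to 4399.

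HSF1, the transcription factor itself (GRCh38 chromosome 8, 144291604 to 144314720), is regulated mainly at the protein level. Its transcript read 2666, 2818 and 2788 in VEH, 2001, 2550.2 and 2763 in DEX, 4619, 5304 and 5990.2 in KJ-PYR-9 and 4028, 4197 and 5644 in KJ-PYR-9+DEX. Both groups with KJ-PYR-9 lay above both groups without it. The rise against VEH was 0.94 on the log2 scale with KJ-PYR-9 (SE 0.17, limma adjusted p = 0.00289) and 0.73 with KJ-PYR-9+DEX (limma adjusted p = 0.0127, but 0.0517 without VEH 1). With GC content and length trends removed these values were 0.25 (limma adjusted p = 0.0755) and 0.13 (limma adjusted p = 0.385), and the first passed when the replicate block was added.

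HSPB1 (chromosome 7, 76302673 to 76304292), the small heat shock protein also called HSP27, read 5201, 5376 and 6458 in VEH and 4625, 5046 and 6016 in DEX. It read 11633, 10980.0 and 13843 in KJ-PYR-9 and 10799.5, 10103 and 17648 in KJ-PYR-9+DEX. The groups with KJ-PYR-9 did not overlap those without it. The rise was 1.097 with KJ-PYR-9 (SE 0.21, limma adjusted p = 0.00341) and 1.14 with KJ-PYR-9+DEX (limma adjusted p = 0.00576) on the log2 scale. After removal of GC and length trends both values were smaller and still passed, at 0.39 (limma adjusted p = 0.0391) and 0.54 (limma adjusted p = 0.0195).

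BAG3 (chromosome 10, 119651380 to 119677819) releases clients from HSP70 and links them to autophagy. It read 1436, 1676 and 1655 in VEH, 1769, 2068 and 1868 in DEX, 2252, 2285 and 2137 in KJ-PYR-9 and 2702, 2874 and 3162 in KJ-PYR-9+DEX. The order of the 4 groups was VEH, DEX, KJ-PYR-9 and KJ-PYR-9+DEX, with no overlap between neighbours. The rise was 0.49 on the log2 scale with KJ-PYR-9 (SE 0.12, limma adjusted p = 0.00948) and 0.87 with KJ-PYR-9+DEX (limma adjusted p = 0.00133). With trends of GC and length removed the KJ-PYR-9 value was 0.06 (limma adjusted p = 0.735), the KJ-PYR-9+DEX value 0.47 (limma adjusted p = 0.0291), and the value for DEX alone, 0.26 as deposited, was 0.58 (limma adjusted p = 0.0102).

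HSPH1 (chromosome 13, 31134973 to 31162388), the HSP110 that acts as an exchange factor of HSP70, read 5316, 4186 and 3514 in VEH, 6901, 6161 and 4959.5 in DEX, 4143, 3489 and 2733 in KJ-PYR-9 and 3266, 2938 and 1745 in KJ-PYR-9+DEX. Replicate 3 was the lowest of each group and replicate 1 the highest. KJ-PYR-9+DEX was lower than VEH (log2 -0.74, SE 0.26, limma adjusted p = 0.0439) and lower than DEX (log2 -1.22, limma adjusted p = 0.00178). The first of these calls was lost in 7 of 19 alternatives. It was lost without VEH 1, VEH 2 or KJ-PYR-9+DEX 3, with no filter on low values and in a fit of both groups alone. With GC and length trends removed it was lost at -0.20, without the replicate block (limma adjusted p = 0.402) and with it (limma adjusted p = 0.165). The second was lost with those trends removed and no replicate block, at -0.28 (limma adjusted p = 0.180). It passed in 18 of 19 alternatives. The KJ-PYR-9 value of -0.33 (limma adjusted p = 0.311) and the DEX value of 0.48 (limma adjusted p = 0.189) did not pass, but both did in the fit with the replicate block (limma adjusted p = 0.0317 and 0.0113), 1 of 19 alternatives each. With GC and length trends removed they were 0.26 (limma adjusted p = 0.231) and 0.08 (limma adjusted p = 0.793), the first of opposite sign.

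HSP90AA1 (chromosome 14, 102080742 to 102139749), the inducible HSP90, read 16439, 21661 and 14564 in VEH, 29310.4, 28723 and 20304 in DEX, 17233, 16918 and 12681 in KJ-PYR-9 and 13028, 16751 and 9398 in KJ-PYR-9+DEX. The DEX libraries overlapped VEH and lay above both groups given KJ-PYR-9. KJ-PYR-9+DEX was lower than DEX (log2 -1.02, SE 0.24, limma adjusted p = 0.00346), and it stayed lower with GC and length trends removed (log2 -0.65, limma adjusted p = 0.0321). The KJ-PYR-9 value was -0.16 (limma adjusted p = 0.596). With DEX alone the value was 0.57 (limma adjusted p = 0.111) and with KJ-PYR-9+DEX against VEH -0.45 (limma adjusted p = 0.158); in the fit with the replicate block both passed (limma adjusted p = 0.00721 and 0.0122).

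HSPA8 (chromosome 11, 123057489 to 123062462), the HSP70 present in unstressed cells, had the highest level per kilobase of the HSP70 genes among the members. It read 18190.4 to 20895 in VEH, 20191 to 24509 in DEX, 21182 to 22918 in KJ-PYR-9 and 16956 to 21232 in KJ-PYR-9+DEX. The KJ-PYR-9 libraries lay just above VEH without overlap, and the other groups overlapped. The log2 fold changes lay between -0.27 and 0.18, and limma called HSPA8 in 0 of the 4 comparisons of groups. The value of -0.27 for KJ-PYR-9+DEX against DEX had a limma adjusted p of 0.0850, and passed with the replicate block (limma adjusted p = 0.0483), without DEX 3 (0.0428) and without KJ-PYR-9+DEX 2 (0.0409).

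**Figure D2:**
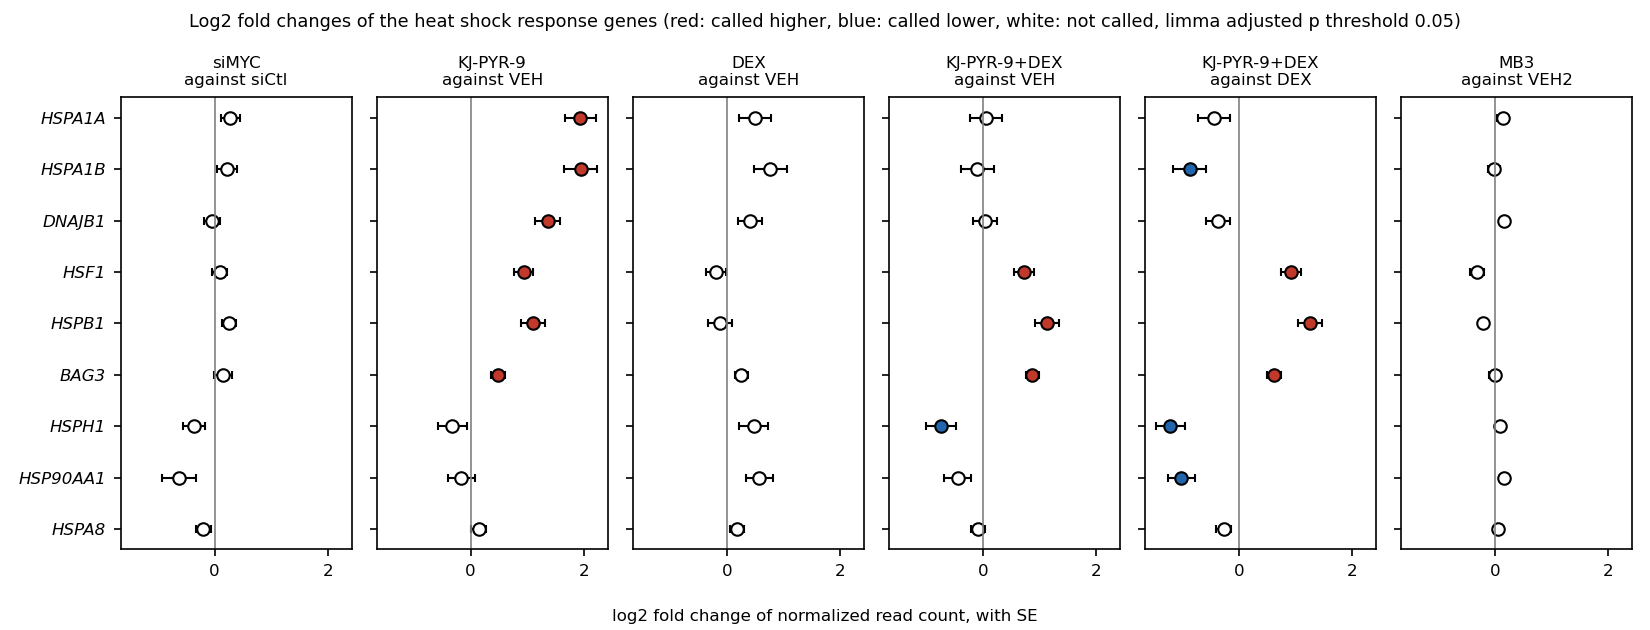
Log2 fold changes (horizontal axis) with their SE for the 9 heat shock response genes in 6 comparisons, filled where the limma adjusted p was under 0.05. In KJ-PYR-9 against VEH 6 points are filled to the right of 0, while no point is filled for siMYC, DEX or MB3 against their controls.

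The counts of members by comparison read as follows. In DEX against VEH, 0 of 9 members were called by limma or edgeR and 1, HSPA1B, by DESeq2, with 2 at an unadjusted limma p under 0.05, beside 9.50% of tested genes higher and 8.02% lower. The replicate block called 2 members there, HSPH1 and HSP90AA1, and raised the number of genes called from 2386 to 5925. In KJ-PYR-9+DEX against VEH 3 members rose and 1 fell, beside 18.4% of genes higher and 18.2% lower, and the block raised the number of genes called from 4979 to 7548. In KJ-PYR-9+DEX against DEX 3 rose (HSF1, HSPB1 and BAG3) and 3 fell (HSPA1B, HSPH1 and HSP90AA1), where 33.6% of genes were higher and 35.1% lower. The comparisons with VEH share the same 3 control libraries, as do those that use DEX.

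**Figure D3:**
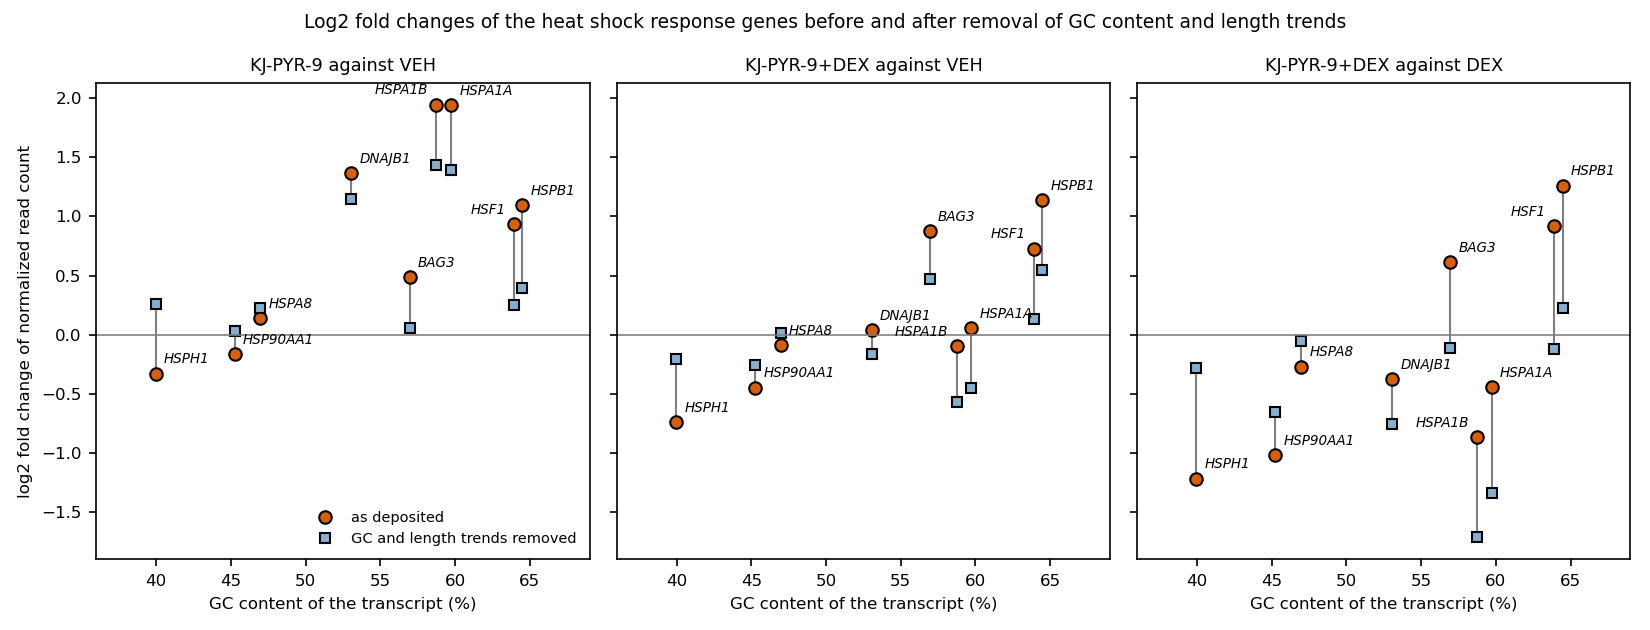
Log2 fold change (vertical axis) against transcript GC content in percent (horizontal axis) for the 9 heat shock response genes, as deposited (circles) and with GC content and length trends removed (squares). HSPA1A, HSPA1B and DNAJB1 stay above 1 in KJ-PYR-9 against VEH, while HSF1 and BAG3 move to 0.25 and 0.06.

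Removal of the GC content and length trends, an alternative chosen after the data were seen, separated the members. In KJ-PYR-9 against VEH it left HSPA1A at 1.39 (limma adjusted p = 0.00470), HSPA1B at 1.43 (0.00666), DNAJB1 at 1.15 (0.00412) and HSPB1 at 0.39, and it ended the calls of HSF1 and BAG3. In KJ-PYR-9+DEX against DEX it turned HSF1 from 0.92 to -0.12 and BAG3 from 0.61 to -0.11, neither called afterwards, and took HSPB1 from 1.26 to 0.22 (limma adjusted p = 0.180). In the same comparison HSPA1A went from -0.44 to -1.34 (limma adjusted p = 0.00366) and DNAJB1 from -0.37 to -0.76 (limma adjusted p = 0.0188), both then called lower. With DEX alone HSPA1B went from 0.77 to 1.14 (limma adjusted p = 0.0317).

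Of 61 genes in 7 lists by role, which include the 9 members, 56 were tested in the inhibitor experiment. In KJ-PYR-9 against VEH 25 of them rose and 9 fell, beside 25.4% and 17.5% of all genes tested. Their median was 0.39 beside 0.06 over all genes. With GC content and length trends removed 22 rose and 4 fell, where 2090 and 1016 of 13046 genes with GC values did. With 1 library left out 21 to 26 rose and 4 to 5 fell. Outside the members 19 of 47 rose and 9 fell, beside the same 25.4% and 17.5% of all genes, with a median of 0.10. Of the 4 tested small heat shock proteins, HSPB1, HSPB6 (1.55, limma adjusted p = 0.00619) and HSPB7 (0.95) rose and HSPB11, which despite its name belongs to the intraflagellar transport machinery, fell (-1.44, limma adjusted p = 0.0100). Of 8 other heat-inducible genes 5 rose, among them SERPINH1, the collagen chaperone HSP47 (1.19, limma adjusted p = 0.00695), while the mitochondrial co-chaperonin HSPE1 fell (-0.92). Of 13 genes of HSP90 and its cochaperones 5 rose and 3 fell, among them CDC37, which loads kinases onto HSP90 (1.02), the ubiquitin ligase STUB1 (0.97) and the prolyl isomerase PPID (-1.004).

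The lists that hold the partners of HSP70 were as mixed, beside 25.4% of all genes tested that rose and 17.5% that fell. In 7 BAG and other exchange factors 4 rose and 2 fell, with HSPBP1 at 1.16 (limma adjusted p = 0.00351), BAG6 at 0.61 and BAG5 at -0.85. Of 8 J proteins DNAJB1, DNAJB5 (0.75, limma adjusted p = 0.00160) and DNAJB2 (0.57) rose and DNAJB4 fell (-1.12, limma adjusted p = 0.00566). In 11 HSP70 and HSP110 genes HSPA1A and HSPA1B rose and HSPA13, a microsomal relative, fell (-0.66). Of 5 regulators HSF1, HSF4 (0.92, limma adjusted p = 0.0403) and IER5, a cofactor that promotes HSF1 activity (0.64), rose. HSPA6, an HSP70 that is nearly silent without stress and was singled out after its values were seen, read 0.378, 1.14 and 20.3 in VEH, 15.3, 6.38 and 5.22 in DEX, 95.3, 11.9 and 19.5 in KJ-PYR-9 and 0, 2.30 and 47.2 in KJ-PYR-9+DEX. These values rest on 0 to 152 reads a library, the groups overlap, and its value of 2.88 (SE 1.37) for KJ-PYR-9 against VEH did not pass (limma adjusted p = 0.107).

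**Figure D4:**
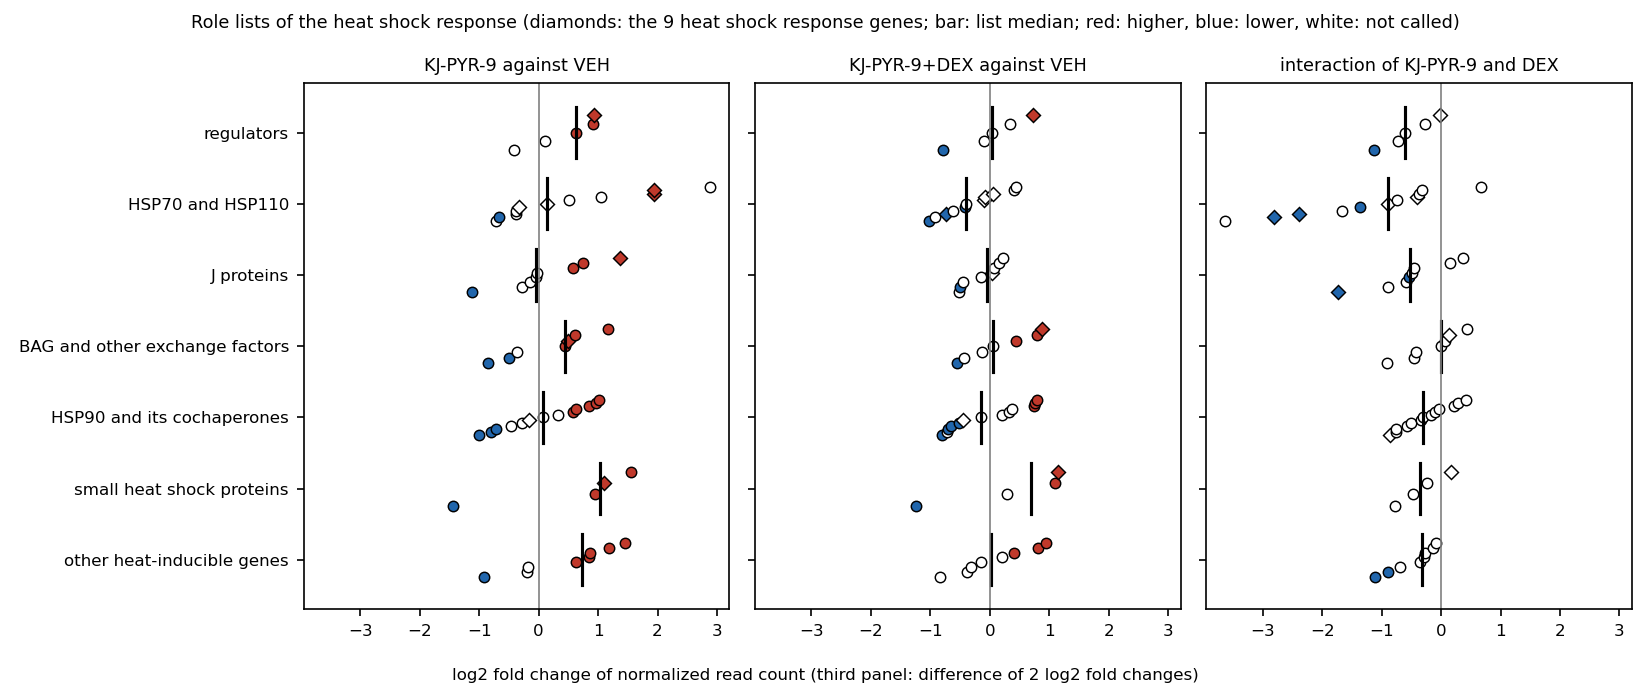
Log2 fold changes (horizontal axis) of the tested genes of 7 role lists in KJ-PYR-9 against VEH and KJ-PYR-9+DEX against VEH, and the difference of the KJ-PYR-9 effects with and without DEX. Diamonds are the 9 heat shock response genes, vertical bars the list medians and filled points called genes. HSPA1A, HSPA1B and DNAJB1 are the diamonds filled in the third panel.

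With DEX alone 4 of the 56 genes rose and 1 fell, beside 9.50% and 8.02% of all genes tested, with a median of 0.27 beside 0.02. Leaving out 1 library moved these counts between 1 and 0 (without DEX 1) and 10 and 4 (without DEX 3). The risers were HSF2, a relative of HSF1 (0.75, limma adjusted p = 0.0483), HSPA13 (1.002), DNAJB4 (1.48) and BAG2 (0.85), and HSPA2, the testis-enriched HSP70, fell (-0.78). In KJ-PYR-9+DEX against VEH 12 rose and 11 fell (11 and 12 with TMM rescaling, 4 and 3 with GC content and length trends removed), beside 18.4% and 18.2% of all genes tested, with a median of -0.09 beside -0.00399. The counts were 4 and 0 without VEH 1, 7 and 1 without VEH 2 and 5 and 1 without KJ-PYR-9+DEX 3. Among the 12 were CDC37 (0.80) and UNC45A, a myosin and HSP90 cochaperone (0.76), and among the 11 the HSP90 cochaperone PTGES3 (-0.81) and the J protein DNAJA1 (-0.50). Against DEX 16 rose and 25 fell (4 and 16 with those trends removed), beside 33.6% and 35.1% of all genes tested, with a median of -0.43 beside 0.000736. HSPA13 (-2.02), DNAJB4 (-2.01) and HSF2 (-1.54) were lower and CDC37 (1.30), UNC45A (1.27) and HSPBP1 (1.23) higher. In the test of the difference 0 of 56 were higher and 8 lower (4 to 11 with 1 library left out), beside 7.15% and 9.62% of all genes tested, with a median of -0.44 beside -0.11, and those outside the members included HSF2 (-1.13), HSPA13 (-1.36), DNAJB5 (-0.54) and SQSTM1, an autophagy receptor (-0.89). With TMM rescaling 5 of 56 were lower in that test.

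The knockdown asked which genes change when MYC is depleted. The target itself read 2313, 2269 and 2138 in siCtl and 1655, 1789 and 1710.3 in siMYC, and the groups did not overlap. MYC was 1.30-fold lower, with a log2 fold change of -0.38 (SE 0.11) and a limma adjusted p of 0.0587, so the depletion of its transcript was small and missed the threshold. None of the 9 members was called by limma, edgeR or DESeq2, where 11.4% of 14788 genes rose and 4.78% fell. At an unadjusted p under 0.05 there were 0 members in limma, 1 in edgeR and 3 in DESeq2. With TMM rescaling 59.3% of all calls were higher, against 70.4% with the values as deposited, and no member was called either way.

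HSP90AA1 differed most between the libraries of the knockdown, with 34177, 33820.1 and 46467 in siCtl and 37931, 21450.2 and 17941 in siMYC. The groups overlapped through siMYC 1, which was as high as siCtl. The value was -0.63 (SE 0.30, limma adjusted p = 0.175), and without siMYC 1 it was -0.94 and passed (limma adjusted p = 0.0231). In siMYC 2 and siMYC 3 the genes of the lowest GC quintile had a median deviation of -0.55 and -0.35 from the siCtl mean, against 0.02 in siMYC 1; the part of this shift in the HSP90AA1 values was not tested. HSPA1A read 864, 726 and 939 in siCtl and 870, 1041 and 1166 in siMYC, and HSPA1B 1039, 786 and 912 and 894, 1025 and 1271. The copies overlapped between the groups, at 0.28 (limma adjusted p = 0.256) and 0.22 (limma adjusted p = 0.415). HSPB1 read 8900.1, 8915 and 8171 in siCtl and 9751, 10089.6 and 11158 in siMYC, without overlap, at 0.25 (limma adjusted p = 0.169), which did not pass. How many of all tested genes separated in this way was not counted. The other 5 members overlapped and lay between -0.36 (HSPH1) and 0.15 (BAG3).

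**Figure D5:**
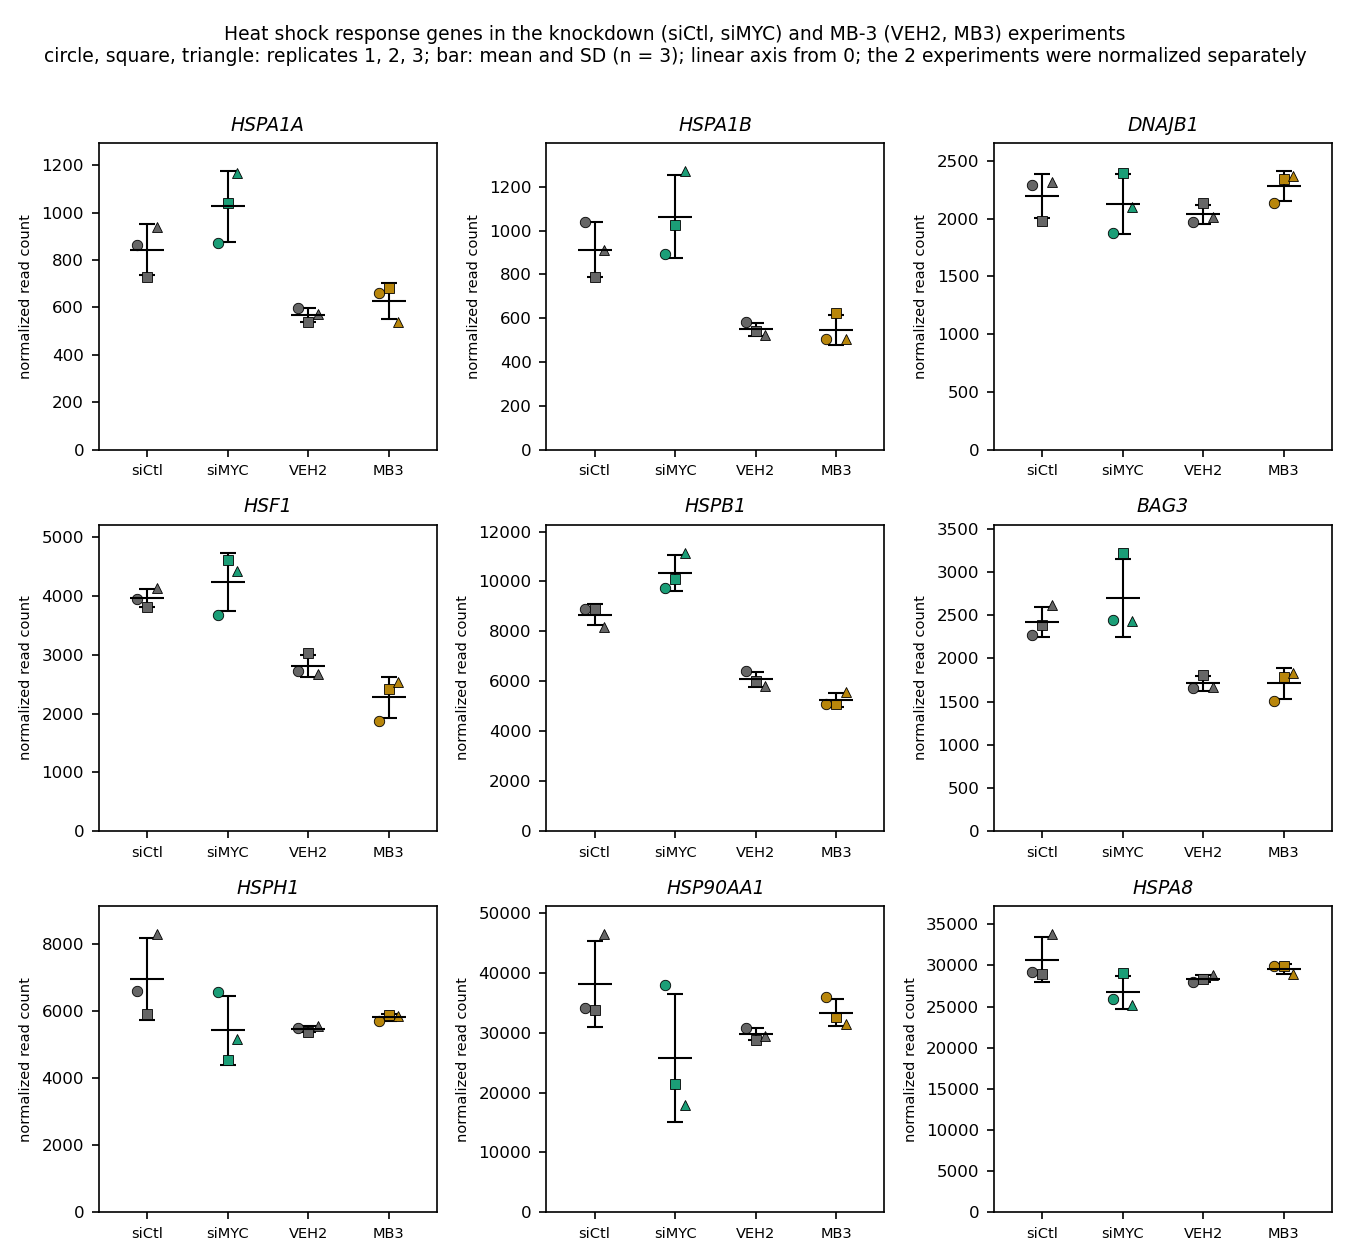
Normalized read counts (vertical axis, linear from 0) of the 9 heat shock response genes in the 3 libraries of siCtl, siMYC, VEH2 and MB3, with the mean and SD as bars. The 2 experiments were normalized separately, so levels compare within each pair. HSP90AA1 in siMYC spans 17941 to 37931.

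In the role lists 4 of 56 tested genes rose and 3 fell after the knockdown (3 and 4 with TMM rescaling), beside 11.4% and 4.78% of all genes tested, with a median of 0.04 beside 0.05. These counts were 0 and 0 to 1 without siMYC 3 or any siCtl library, 3 and 1 without siMYC 2 and 6 and 6 without siMYC 1. The risers included DNAJB2 (0.63, limma adjusted p = 0.0315), DNAJB5 (0.53) and SQSTM1 (0.84, limma adjusted p = 0.0154). Those that fell were the HSP110 relative HSPA4L (-1.35, limma adjusted p = 0.0364), the HSP90 cochaperone CHORDC1 (-1.02) and the mitochondrial chaperonin HSPD1 (-0.97, limma adjusted p = 0.0145).

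The MB-3 experiment asked what changes when GCN5 is inhibited. KAT2A, which encodes GCN5 (chromosome 17, 42113111 to 42121367), read 415, 509 and 524 in VEH2 and 348, 454 and 465 in MB3, and the groups overlapped (log2 -0.20, limma adjusted p = 0.526). None of the 9 members was called by limma, edgeR or DESeq2, with 2, 4 and 3 of them at an unadjusted p under 0.05. Over all 10048 genes tested 0.0299% rose and 0.0299% fell, which is 3 genes each, and the replicate block raised the total from 6 to 14. The lowest values were those of HSF1 (-0.32, limma adjusted p = 0.338) and HSPB1 (-0.21, limma adjusted p = 0.326). HSF1 read 2730.3, 3033 and 2673 in VEH2 and 1874, 2413 and 2539 in MB3, and HSPB1 6392, 6002 and 5824 and 5092, 5099 and 5559. In both genes the MB3 libraries lay below the VEH2 libraries, and MB3 1 was the lowest of its group; its genes of the highest GC quintile had a median deviation of -0.38. With GC content and length trends removed these values were -0.08 and 0.01.

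The inducible chaperones differed little from VEH2. HSPA1A read 596, 539 and 572 in VEH2 and 659, 684 and 539 in MB3, and HSPA1B 583, 542 and 521 and 503, 625 and 507. Both overlapped between the groups. DNAJB1 read 1975, 2133 and 2012 in VEH2 and 2136, 2345 and 2370.4 in MB3, which do not overlap, at 0.16 (limma adjusted p = 0.389). HSP90AA1 was at 0.16 (limma adjusted p = 0.393), HSPH1 at 0.09 and HSPA8 at 0.06, each with MB3 just above VEH2. The share of all 10048 genes whose MB3 and VEH2 libraries did not overlap was not counted. The separations of members named here, HSF1 and HSPB1 included, are therefore descriptions of the values only. BAG3 overlapped at -0.01, and 0 of the 52 tested genes of the role lists were called.

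Likeness was measured as the root mean square difference between the log2 fold changes of 2 genes over 5 comparisons (siMYC, KJ-PYR-9, DEX and KJ-PYR-9+DEX, and MB3, each against its control), over 9858 genes tested in all experiments. Of these comparisons 3 share the VEH libraries. The fold changes are those as deposited, so they hold the shifts in GC content, and likeness was not computed with those trends removed. HSPA1A and HSPA1B were nearest to each other at 0.16, and HSPA1A was next nearest to KDM6B and TRIB3 (both 0.19). For HSPA1B the next were AVPI1 (0.18) and RNF122 (0.22), and for DNAJB1 they were APBB3, KDM6B and ITPRIP (all 0.18). HSF1 was nearest to CRELD2, TTLL1 and ANO8 (0.04 to 0.05), HSPB1 to KCNK3, PFKP and CD81 (0.08 to 0.11) and BAG3 to DGKD, JARID2 and TNFRSF10B (0.11 to 0.12). HSPH1 was nearest to MCPH1, OFD1 and CEP41 (all 0.07), HSP90AA1 to PPP1R9A, UTP14A and FAM13A (0.04 to 0.05) and HSPA8 to NDRG3, PSMD6 and PRPF4 (0.04 to 0.05). Among the members themselves HSPH1 was nearest to HSP90AA1 at 0.20, HSF1 to HSPB1 at 0.22 and DNAJB1 to HSPA1A at 0.30, while HSPH1 and HSPB1 were farthest apart at 1.13. Transcript GC content was 40.0% in HSPH1, 45.2% in HSP90AA1, 53.0% in DNAJB1, 59.7% in HSPA1A, 63.9% in HSF1 and 64.5% in HSPB1. The part of GC content in these distances was not tested.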

How the data were processed

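Transcript levels were measured by paired end RNA sequencing of RNA depleted of ribosomal RNA, per the labels' protocols. Tools listed without roles or versions in the submitters' processing notes are DESeq2, featureCounts, SAMtools and bcl2fastq, and the build listed is GRCh38. Aligner, annotation and strandedness: not given in the sources used here. In each library, the signal the authors deposited is a read count per gene divided by a library factor, and every value was a whole multiple of 1 step per library (tolerance 0.0001, 100% of values), so the reads were recovered. The 3 experiments were normalized separately and compared separately. The 6462 features without a symbol in the inhibitor experiment were left out, and features with the same symbol were summed (32 there and 21 in the knockdown table).

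For genes with a mean of at least 10, log2(value + 1) was fitted in R 4.3.3 with limma 3.58.1 and tested two-sided, and p values were adjusted by the Benjamini-Hochberg method across every gene tested (14788, 13616 and 10048) with a threshold of 0.05; the 12 inhibitor libraries shared 1 fit. The scripts were tested on simulated data. Alternatives were pseudocounts of 0.5 and 5, no filter or a mean of at least 50, TMM rescaling, edgeR 4.0.16 and DESeq2 1.42.0 on the recovered reads, trended and robust variance, a replicate block, a fit of 2 groups alone, HSPA1A and HSPA1B summed, and each library left out. The removal of GC content and length trends (splines with 5 degrees of freedom) was added after the data were seen; GC values were at hand for 14163, 13046 and 9793 of the genes tested.

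Libraries with the same replicate number correlated in the inhibitor experiment (residual correlations of the 18 pairs 0.130 to 0.524) and the MB-3 experiment (3 pairs, 0.208 to 0.389). In every other group, 9 of 12 inhibitor libraries and 6 of 6 MB-3 libraries correlated best with their own number, so the pairing was incomplete in the inhibitor experiment. The labels call the replicates biological and do not say what shares a number. The 9 genes, the role lists and the rule for other named genes were all chosen with earlier results of these data known. That rule names at most 3 called genes with the largest change per list and comparison, and the 3 genes most like each member. Some genes of these lists are counted but not reported by name here. Positions and promoters come from RefSeq (GRCh38.p14), and GC content and length from the longest coding transcript in GENCODE v29.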

Additional observations from a re-analysis of the deposited data

Results flagged for a closer look

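The effect of KJ-PYR-9 differed with and without DEX for 3 of the 9 heat shock response genes, by the interaction term of limma over the 12 libraries. The difference was -2.38 on the log2 scale for HSPA1A (limma adjusted p = 0.00251), -2.81 for HSPA1B (limma adjusted p = 0.00118) and -1.74 for DNAJB1 (limma adjusted p = 0.00356). In each of these genes the 3 KJ-PYR-9 libraries were above the 3 VEH libraries. The KJ-PYR-9+DEX libraries were below the DEX libraries in HSPA1B and DNAJB1 and overlapped them in HSPA1A. HSPA1A and HSPA1B share most of their sequence, and summed they gave -2.58 (limma adjusted p = 0.00169). Without KJ-PYR-9 1, the highest library in all 3 genes, the differences were -2.06, -2.42 and -1.46, with limma adjusted p values of 0.000519 to 0.00347.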

How the results depend on the processing

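Of 1175 recomputed values for single members, 1125 kept their side of the threshold, 25 passed newly, 21 no longer passed and 4, called in the values as reported, changed sign. These were HSF1 (-0.12) and BAG3 (-0.11) in KJ-PYR-9+DEX against DEX with GC content and length trends removed, with and without the replicate block. The cause was not tested. Values that were not called changed sign in another 56 cases and were called in 0 of them after the change. In siMYC against siCtl the 2386 genes called became 3782 with DESeq2, 470 with the replicate block and 431 with the block and GC content and length trends removed. There the numbers share no pairing: the 3 residual correlations were -0.346 to -0.020, and 0 of 6 libraries correlated best with their own number. In KJ-PYR-9 against VEH 5835 became 3106 with trends removed. In DEX against VEH 2386 became 3737 with DESeq2 (1 member called), 5925 with the block (2 members) and 1208 with trends removed (2 members). The members called there were 4 with both and 1 in a fit of the 2 groups alone. In KJ-PYR-9+DEX against VEH 4979 became 7548 with the block, 1447 with trends removed, 2889 with both (2 members with trends removed, 2 with both) and 1592 in a fit of the 2 groups alone. In KJ-PYR-9+DEX against DEX 9351 became 4035 with trends removed and 5446 with the block as well. In the interaction 2283 became 4399 with the block (5 members) and 3769 with both (6 members). In MB3 against VEH2 6 became 16 with edgeR, 154 with DESeq2, 11 with trended and robust variance, 14 with the block, 11 with trends removed and 3 with both. The replicate block in the inhibitor and MB-3 experiments changed no call of a member other than those given with the results.

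Leaving out 1 library at a time gave 432 to 3983 genes in siMYC against siCtl (0 to 1 members), highest without siMYC 1 and 432 to 570 without siMYC 3 or any siCtl library. It gave 3393 to 5433 in KJ-PYR-9 against VEH (lowest without KJ-PYR-9 3, then 3489 without VEH 1), and 865 to 3620 in DEX against VEH (highest without DEX 3, 865 without DEX 1 and 961 to 1326 without any of the other 4). It gave 1376 to 5191 in KJ-PYR-9+DEX against VEH (2 to 4 members), with 1376, 2423 and 2093 without VEH 1, VEH 2 and KJ-PYR-9+DEX 3. It gave 1469 to 2731 in the interaction (lowest without KJ-PYR-9 1, then 1495 without KJ-PYR-9 2) and 1 to 3 in MB3 against VEH2. The 3 libraries a group and depths down to 5581666 reads limit what could be detected, and HSPA6 rests on few reads.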
